A study of Mus musculus with 9 samples.

Results

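The tumour necrosis factor (TNF) superfamily was examined in invariant natural killer T (iNKT) cells labelled as knockout or wildtype for Utx. The genes were chosen by symbol: every gene with a probe set of its own on the array whose symbol starts with Tnfsf or Tnfrsf and a digit, together with Fas, Fasl, Cd27, Cd70, Cd40, Cd40lg, Tnf, Lta, Ltb and Ltbr. This gave 37 of the 18193 genes on the array, namely 23 receptors, 13 ligands and 1 antisense RNA gene, Tnfsf13os. All 13 ligands, 18 receptors and the antisense gene had a mean level above the filter on low values (4.54, log2) and were tested. Tnfsf12 and Tnfsf13 shared their probe sets with other genes and are not among the 37.

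RNA came from thymic iNKT cells of sex- and age-matched mice between 8 and 12 weeks old, on 4 arrays of the genotype given as Utx knock out (KO1 to KO4) and 5 arrays of the genotype given as Utx wildtype (WT1 to WT5), all called biological replicates. Utx, the protein of the X-linked gene Kdm6a, is a histone demethylase that erases the repressive mark which Polycomb complexes place on histone H3. The sources used here do not give how the deletion was made, in which cells, on which strain, with which sort gate or with how many animals per array, so that p-values measure the spread between these arrays. KO1 and WT1 form batch 1, KO2, KO3, KO4 and WT2 batch 2, and WT3, WT4 and WT5 batch 3, by the titles.

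TNF ligands are trimeric proteins, most of them held in the membrane of T cells, myeloid cells or dendritic cells, and each binds one or a few receptors of the matching family. Receptors with a death domain can recruit caspase 8 and start apoptosis, whereas most of the others bind TRAF adaptors and turn on NF-kB and kinase cascades. In lymphocytes the family supplies costimulation, survival signals and killing of target cells, and in the thymus it also serves exchanges between T lineage cells and epithelium.

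In Utx knockout iNKT cells the ligand genes Tnfsf14 and Fasl fell (log2 differences -1.51 and -1.38), and so did the receptor genes Tnfrsf18 (-1.24), Tnfrsf1b (-1.14) and Tnfrsf10b (-0.71). Tnfrsf13b (log2 difference 1.46) and Tnfrsf4 (1.17) rose. These 7 genes had an adjusted p under 0.05 in limma's test over 14524 genes with batch as a factor. They are 22.6% of the 31 receptor and ligand genes tested, against 11.3% of all genes tested. The share that fell was 16.1% of the 31, against 3.37% of all genes, and the share that rose was 6.45%, against 7.88%. The ligands had a median difference of -0.59 (log2, knockout minus wildtype) and the receptors one of -0.07, beside 0.11 over all genes. The antisense gene Tnfsf13os had a difference of -0.02 (SE 0.19).

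No fall of Kdm6a passed the test on the arrays labelled Utx knockout. Its probe set of highest level read 10.01, 9.62, 10.05 and 10.07 (log2) in KO1 to KO4, against 9.94, 9.98, 10.15, 9.79 and 9.996 in WT1 to WT5, and none of its 4 probe sets passed (differences of -0.46 to 0.52). The deleted part of the gene, and thus its place relative to these probe sets, is unknown here, so the genotypes below rest on the labels. Across the 14524 genes, which are not independent replicates, the deviations of KO1 and WT1 from their genotype means correlated at r = -0.92, one array lying above its mean by about as much as the other lay below. The mean of these deviations had an SD over genes of 0.046, beside 0.22 for KO1 and 0.24 for WT1, and whether values were adjusted for batch before deposit was not tested. On the knockout arrays 9 of 12 double-positive thymocyte markers rose, with a mean list level of 11.4 to 12.1, against 9.91 to 10.6 on the wildtype arrays. Of 12 macrophage and dendritic cell markers above the filter level 4 rose, and the mean over all 14 measured, with Cd14 and Itgam under that level, was 6.004 to 6.88 on knockout arrays, against 4.87 to 5.44 on wildtype arrays. By limma none of 6 thymic epithelial and 7 neutrophil markers passed, with an unadjusted p under 0.05 for 0 and 1 of them. The epithelial markers had a median difference of 0.10. The neutrophil markers had one of 0.91, with 2.39 in batch 1 and -0.31 in batch 2. Their mean level spread widely, from 5.07 to 7.32 on knockout arrays and from 4.73 to 6.38 on wildtype arrays. Of 12 iNKT and T cell identity markers Thy1 (0.89) rose and Cd44 (-1.23) and Il2rb (-1.01) fell. T cell genes were present on both sides: Cd3e averaged 12.85 and 12.87 and Zbtb16, the transcription factor of the iNKT lineage, 10.72 and 10.95 (knockout, then wildtype). The difference of Zbtb16 was -0.72 in batch 1 and 0.12 in batch 2. Of the 12 markers, 2 had all knockout arrays above the wildtype arrays, beside 22.2% of all genes. All knockout arrays lay below the wildtype arrays for 4 markers, beside 12.7% of all genes. Cd3g (-0.37) and Cd2 (-0.36) were among these 4 without passing. In RNA of a sorted population, fewer cells of a type and less RNA per cell cannot be told apart, and the part of these markers in the results below was not tested.

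Promoter sequences are shown for 4 genes on which the results turn, 300 bases each from 250 bases before to 50 bases after the transcript start in the RefSeq table of build GRCm38.p6. Tnfrsf4 and Tnfrsf18 are direct neighbours on chromosome 4 of that build, are read from the same strand and moved in opposite directions, and Tnfsf14 and Fasl are the ligand genes that fell. Capitals mark CpG dinucleotides, the bases at which DNA is methylated and whose density is high at many promoters bound by Polycomb complexes.
Tnfrsf4 (chr4:156013445-156013744, plus strand): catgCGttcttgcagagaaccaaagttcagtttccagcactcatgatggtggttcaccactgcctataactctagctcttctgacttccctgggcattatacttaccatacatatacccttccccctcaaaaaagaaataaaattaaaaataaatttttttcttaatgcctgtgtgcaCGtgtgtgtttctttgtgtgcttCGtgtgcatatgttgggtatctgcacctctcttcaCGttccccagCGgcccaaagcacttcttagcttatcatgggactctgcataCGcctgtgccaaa
Tnfrsf18 (chr4:156026072-156026371, plus strand): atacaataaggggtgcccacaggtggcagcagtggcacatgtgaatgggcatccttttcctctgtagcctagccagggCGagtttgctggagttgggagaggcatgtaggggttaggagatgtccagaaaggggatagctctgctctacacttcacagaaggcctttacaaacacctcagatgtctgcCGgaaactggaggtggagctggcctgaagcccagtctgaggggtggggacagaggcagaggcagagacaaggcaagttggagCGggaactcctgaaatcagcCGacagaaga
Tnfsf14 (chr17:57194132-57194431, minus strand): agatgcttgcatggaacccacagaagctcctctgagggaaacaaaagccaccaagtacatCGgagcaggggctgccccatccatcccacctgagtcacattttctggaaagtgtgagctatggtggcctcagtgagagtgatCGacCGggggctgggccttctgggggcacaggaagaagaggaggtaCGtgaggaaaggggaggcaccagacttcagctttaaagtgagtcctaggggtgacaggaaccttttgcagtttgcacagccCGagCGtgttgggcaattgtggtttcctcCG
Fasl (chr1:161788446-161788745, minus strand): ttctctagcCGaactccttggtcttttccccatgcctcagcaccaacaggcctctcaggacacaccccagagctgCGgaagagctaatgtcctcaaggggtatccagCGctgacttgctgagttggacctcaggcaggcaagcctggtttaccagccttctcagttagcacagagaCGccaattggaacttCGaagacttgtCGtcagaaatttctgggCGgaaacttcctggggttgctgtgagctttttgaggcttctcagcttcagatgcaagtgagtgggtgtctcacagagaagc
The Tnfrsf4 promoter holds 6 CpG dinucleotides, that of Tnfrsf18 holds 4, and those of Tnfsf14 and Fasl hold 7 each, beside a median of 7 over all 32851 promoters of the table and of 9 over the 32 promoters found for 28 of the 37 genes. Of the other called genes, Tnfrsf1b has 13 and Tnfrsf13b 8, both above the median of the table, whereas the 4 windows shown are at or under it.

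Short motifs were searched in these windows on both strands. TGTGGT, the core of Runx sites, was present in 5 of the 32 family promoters, including Tnfsf14, and in 16.8% of all promoters. GNGTGGGNG, a form of Egr sites, occurred in 7 of the 32, the called genes Fasl and Tnfrsf1b among them, and in 14.3% of all. The letters GGG and TTCC with any 3 bases between them, a form of NF-kB sites, occurred in 3 of the 32 (Ltb, Tnfrsf25 and Tnfrsf9) and in 5.56% of all, TATAAA in 5 and 13.6%, and the T-box motif GGTGTGA in 0 and 3.98%. The windows of Tnfrsf4 and Tnfrsf18 held none of these 5 motifs. A match or its absence describes these letters in this window and says nothing of binding.

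**Figure D1:**
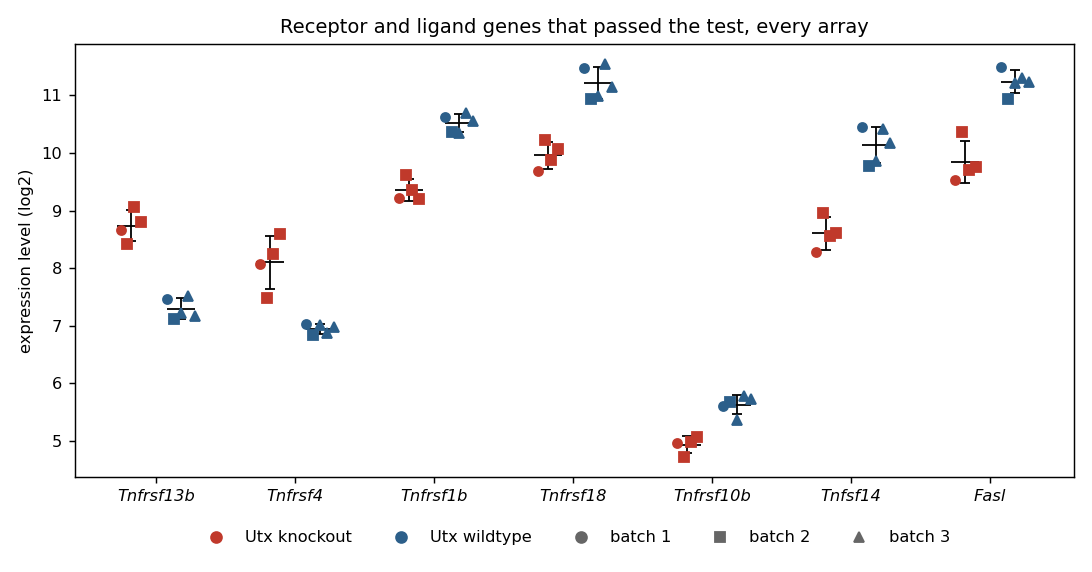
Expression level (log2, vertical axis) of the 7 genes that passed the test on every array, knockout arrays in red to the left of wildtype arrays in blue, with the batch shown by the symbol and the mean and SD of each genotype as black lines. For each gene the knockout and wildtype arrays occupy separate ranges, and levels are comparable within a gene only.

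Among the ligands, Tnfsf14, which encodes LIGHT, the ligand of the herpesvirus entry mediator and of the lymphotoxin beta receptor, had the largest difference. It read 8.28, 8.96, 8.57 and 8.62 (log2) in KO1 to KO4, against 10.45, 9.78, 9.87, 10.42 and 10.17 in WT1 to WT5. All knockout arrays lay below all wildtype arrays. The level averaged 8.60 ± 0.28 (SD, n = 4) in knockout and 10.14 ± 0.31 (n = 5) in wildtype cells, 2.84-fold lower in knockout cells (log2 difference -1.51, SE 0.28, adjusted p = 0.0140 by limma), with -2.18 in batch 1 and -1.06 in batch 2. The call held in each of the 9 fits without 1 array (adjusted p 0.0090 to 0.0434), but it ended when all arrays of batch 3 were left out. Here and below, the fits without WT1 and without KO1 are the same, since either leaves the difference within batch 2. Those without WT3, WT4 or WT5 change the spread alone. A second probe set of the gene also had separate ranges, with a difference of -1.04 (adjusted p = 0.0979 over all probe sets). Its receptors did not pass. Tnfrsf14 averaged 5.48 ± 0.33 in knockout and 5.96 ± 0.35 in wildtype cells (-0.51, adjusted p = 0.279), and Ltbr 5.72 ± 0.12 and 5.68 ± 0.10 (0.02, adjusted p = 0.936).

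Fasl, the ligand by which cytotoxic lymphocytes trigger death through Fas, read 9.54, 10.37, 9.70 and 9.77 in KO1 to KO4, against 11.49, 10.94, 11.22, 11.31 and 11.23 in WT1 to WT5. Here too the ranges were separate, and KO2 was the knockout array nearest to wildtype. The gene was 2.59-fold lower in knockout cells (9.84 ± 0.36, n = 4, against 11.24 ± 0.20, n = 5; log2 difference -1.38, SE 0.27, adjusted p = 0.0167). Within batch 1 the difference was -1.95, and within batch 2 -0.99. Without WT1 or KO1, which leaves the difference within batch 2 in either case, the call ended (-0.99, adjusted p = 0.0569). Both probe sets of Fasl passed among all probe sets, with -1.38 (adjusted p = 0.0251) and -1.95 (adjusted p = 0.0319).

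Its receptor Fas did not pass: it read 10.06, 9.79, 10.03 and 10.05 in KO1 to KO4, against 10.13, 10.14, 10.09, 10.22 and 10.11 in WT1 to WT5. The knockout arrays lay just below the wildtype arrays, with a difference of -0.13 (95% interval -0.49 to 0.22, adjusted p = 0.577).

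Ligands that did not pass had mostly negative differences. By limma 2 of the 13 ligands passed, which is 15.4% against 11.3% of all genes tested. Both were lower, as were 3.37% of all genes. An unadjusted p under 0.05 was reached by 7 ligands, beside 30.8% of all genes tested. Of the 13 ligand genes, 10 had a negative and 3 a positive difference, beside 5918 negative and 8606 positive among all genes. Arrays of the genotypes did not overlap for 7 ligands, 6 lower and 1 higher in knockout cells, which is 53.8% of the ligands against 35.0% of all genes (lower 46.2% against 12.7%, higher 7.69% against 22.2%). For the 18 receptors the share was 55.6%, with 33.3% lower and 22.2% higher.

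Tnfsf8, the CD30 ligand gene, lay nearest to the threshold of those not called (log2 difference -0.92, adjusted p = 0.0532). It read 5.68, 5.30, 5.08 and 5.29 on the knockout arrays, against 5.95, 6.57, 6.02, 6.45 and 6.03 on the wildtype arrays, with -0.27 in batch 1 and -1.35 in batch 2. Its receptor gene Tnfrsf8 was under the filter level, at 4.24 ± 0.18 in knockout and 4.06 ± 0.08 in wildtype cells.

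Tnfsf10 encodes TRAIL, a ligand that kills through death receptors. It read 10.0004, 10.41, 10.54 and 9.63 in KO1 to KO4, against 11.13, 10.86, 10.97, 10.93 and 11.12 in WT1 to WT5. All knockout arrays were lower, with a difference of -0.85 (adjusted p = 0.0743), -1.13 in batch 1 and -0.67 in batch 2. The other 2 probe sets of Tnfsf10 had -1.05 and -0.62 and separate ranges too. When all probe sets of a gene were averaged, Tnfsf10 passed (-0.84, adjusted p = 0.0388).

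Ltb, the membrane subunit of lymphotoxin, read 9.04, 9.56, 9.002 and 9.35 in KO1 to KO4, against 10.35, 9.75, 9.84, 10.45 and 9.76 in WT1 to WT5 (log2 difference -0.79, adjusted p = 0.105). Tnfsf9, the 4-1BB ligand gene, read 6.66, 6.71, 7.16 and 6.62, against 7.61, 7.17, 7.31, 7.45 and 7.38 (-0.59, adjusted p = 0.107). Both had separate ranges without passing, and for Tnfsf9 KO3 nearly reached WT2.

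Tnf, the founding cytokine of the family, read 6.51, 7.03, 6.60 and 7.01 in KO1 to KO4, against 7.64, 6.90, 7.40, 7.20 and 7.23 in WT1 to WT5. Cd40lg, by which T cells license B cells and dendritic cells, read 6.53, 6.94, 6.85 and 6.77, against 7.75, 6.90, 7.38, 7.22 and 7.29. For each of these genes WT2 lay inside the range of the knockout arrays. Tnf had a difference of -0.46 (adjusted p = 0.260), made up of -1.13 in batch 1 and -0.01 in batch 2, and Cd40lg one of -0.52 (adjusted p = 0.187), made up of -1.23 and -0.05. Cd40lg passed in the fit without WT2, which keeps the batch 1 difference (adjusted p = 0.0249).

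Lta, the soluble lymphotoxin subunit, is the neighbour of Tnf, and Tnf that of Ltb, on chromosome 17. Lta averaged 7.57 ± 0.41 in knockout and 7.33 ± 0.36 in wildtype cells, a difference of 0.28 (SE 0.34) with opposite signs in the batches (-0.60 and 0.86). Tnfsf13b, which encodes the B cell survival factor BAFF, averaged 5.63 ± 0.30 in knockout and 6.35 ± 0.34 in wildtype cells (-0.77, adjusted p = 0.119). Its difference was 0.05 in batch 1 and -1.32 in batch 2, and it passed in the fit without WT1 or KO1 (adjusted p = 0.0208). Another probe set of Tnfsf13b had separate ranges and a difference of -1.53 (adjusted p = 0.0811).

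The remaining ligands did not pass. Tnfsf4, the OX40 ligand gene, had a difference of 0.40 (adjusted p = 0.194), with 5.26, 5.11, 5.28 and 4.91 on the knockout arrays, against 4.67, 4.83, 4.83, 4.84 and 4.45 on the wildtype arrays, separate ranges without a call. Tnfsf11, the RANK ligand gene, averaged 8.48 ± 0.26 in knockout and 8.80 ± 0.33 in wildtype cells, with -0.93 in batch 1 and 0.11 in batch 2. Cd70, the CD27 ligand gene, averaged 5.02 ± 0.24 and 4.91 ± 0.17, a difference of 0.09 (SE 0.21).

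**Figure D2:**
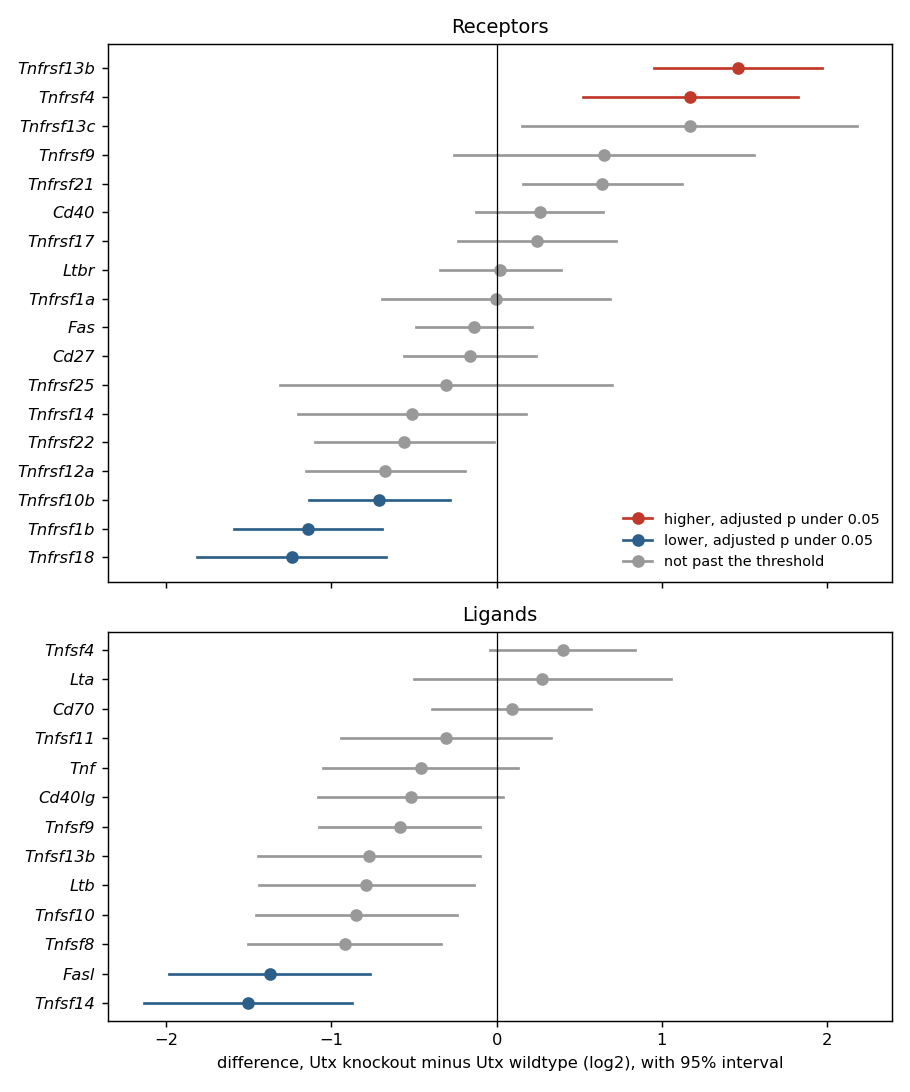
Fitted difference of each receptor gene (upper panel) and ligand gene (lower panel) that was tested, as knockout minus wildtype (log2, horizontal axis) with its 95% interval, not adjusted for the number of genes. Tnfrsf13b and Tnfrsf4 lie to the right, 5 genes in blue lie to the left, and 10 of the 13 ligands have a negative difference.

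Of 5 costimulatory receptors tested, 1 rose (Tnfrsf4), 1 fell (Tnfrsf18) and 3 did not pass (Cd27, Tnfrsf9 and Tnfrsf14). Over all genes 7.88% rose and 3.37% fell, and a class this small is described gene by gene. Tnfrsf4, which encodes OX40, a receptor induced on activated and regulatory T cells, read 8.08, 7.48, 8.25 and 8.60 in KO1 to KO4, against 7.04, 6.85, 7.01, 6.87 and 6.97 in WT1 to WT5. KO2 was the lowest knockout array and still above all wildtype arrays, which spanned a narrow range. The gene was 2.26-fold higher in knockout cells (8.10 ± 0.47, n = 4, against 6.95 ± 0.08, n = 5; log2 difference 1.17, SE 0.29, adjusted p = 0.0361), and its log2 difference was 1.04 in batch 1 and 1.26 in batch 2. The call held only without KO2 or without KO4 and ended in the other 7 fits that left out 1 array (1.04 to 1.26, adjusted p 0.0612 to 0.289).

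Tnfrsf18, its neighbour, encodes GITR, which likewise costimulates T cells. It read 9.69, 10.23, 9.87 and 10.07 in KO1 to KO4, against 11.47, 10.93, 11.00, 11.55 and 11.14 in WT1 to WT5. In contrast to Tnfrsf4, all knockout arrays were below the wildtype arrays. The level was 2.36-fold lower in knockout cells (9.96 ± 0.23, n = 4, against 11.22 ± 0.28, n = 5; log2 difference -1.24, SE 0.25, adjusted p = 0.0197), and the log2 difference was -1.78 in batch 1 and -0.88 in batch 2. Without WT1 or KO1 the call ended (-0.88, adjusted p = 0.0673). Of 7 regulatory T cell markers, a cell type known for high levels of both receptors, 1 rose (Ikzf4, 1.53) on the same arrays, and Foxp3 had a difference of 0.77 (adjusted p = 0.118). The mean level of these markers was 8.03 to 8.36 on knockout arrays and 7.43 to 7.75 on wildtype arrays, and all 7 were above the filter level.

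Cd27 and Tnfrsf9 did not pass. Cd27, a costimulatory receptor of naive and memory T cells, read 11.53, 11.56, 11.31 and 11.41 in KO1 to KO4, against 11.62, 11.63, 11.52, 11.87 and 11.47 in WT1 to WT5 (log2 difference -0.16, 95% interval -0.56 to 0.24). Tnfrsf9, which encodes 4-1BB, a receptor induced by T cell receptor signals, read 7.87, 7.87, 8.51 and 8.99, against 8.11, 7.21, 7.33, 7.90 and 7.81. For Tnfrsf9 KO3 and KO4 stood above the other arrays, and the difference of 0.65 (95% interval -0.26 to 1.56, adjusted p = 0.295) was -0.24 in batch 1 and 1.25 in batch 2.

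Among the remaining receptors that bind TRAF adaptors, Tnfrsf1b, which encodes TNFR2, the TNF receptor without a death domain, fell. It read 9.23, 9.62, 9.36 and 9.21 in KO1 to KO4, against 10.63, 10.36, 10.35, 10.70 and 10.56 in WT1 to WT5. Every knockout array lay below every wildtype array, and the gene was 2.21-fold lower in knockout cells (9.35 ± 0.19, n = 4, against 10.52 ± 0.16, n = 5; log2 difference -1.14, SE 0.20, adjusted p = 0.0113). In batch 1 the difference was -1.41 and in batch 2 -0.96. The call held in all 9 fits without 1 array (adjusted p 0.0064 to 0.0420), of which those without WT1 and without KO1 are the same. It ended when all arrays of batch 3 were left out. A second probe set, also with separate ranges, had -0.45 (adjusted p = 0.146).

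Tnfrsf1a, the TNF receptor with a death domain, read 8.90, 8.90, 8.96 and 9.65 in KO1 to KO4, against 9.37, 8.86, 8.93, 9.54 and 8.93 in WT1 to WT5. KO4 and WT4 were the high arrays of their groups, and the difference was -0.0043 (95% interval -0.70 to 0.69), with -0.47 in batch 1 and 0.31 in batch 2. Tnfrsf12a, which encodes Fn14, the receptor for TWEAK, read 6.16, 5.92, 5.74 and 6.11, against 6.51, 6.81, 6.55, 6.93 and 6.45, separate ranges without a call (-0.67, adjusted p = 0.0747).

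Of the other receptors with a death domain, Tnfrsf10b, the TRAIL receptor DR5, fell in the fit to all arrays. It read 4.97, 4.72, 4.98 and 5.06 in KO1 to KO4, against 5.61, 5.68, 5.36, 5.79 and 5.73 in WT1 to WT5. The groups were separate, at levels near the filter on low values, and the difference of -0.71 (SE 0.19, adjusted p = 0.0452) was -0.64 in batch 1 and -0.76 in batch 2. This call ended in each of the 9 fits without 1 array (-0.76 to -0.64, adjusted p 0.0554 to 0.338), and a second probe set had -0.31 (adjusted p = 0.383). The call of Tnfrsf10b ended too after quantile normalization, with arrays centred on their medians and with the mean of all probe sets. Tnfrsf21, which encodes DR6, averaged 8.01 ± 0.22 in knockout and 7.42 ± 0.19 in wildtype cells (0.64, adjusted p = 0.0841). Tnfrsf25, which encodes DR3, the receptor for TL1A, averaged 6.58 ± 0.56 and 6.93 ± 0.49, with -1.65 in batch 1 and 0.59 in batch 2. Tnfrsf25 had a call in the fit without WT2, which keeps the batch 1 difference (-1.65, adjusted p = 0.0399).

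Decoy receptors bind ligand without passing on a signal. Tnfrsf22, a decoy TRAIL receptor of the mouse, read 5.54, 5.58, 5.30 and 4.96 in KO1 to KO4, against 5.85, 6.004, 5.74, 5.77 and 6.24 in WT1 to WT5 (log2 difference -0.56, adjusted p = 0.153). Its neighbour Tnfrsf23 (3.86 in knockout and 4.17 in wildtype cells) and the osteoprotegerin gene Tnfrsf11b (4.30 and 4.63) were under the filter level, as were Tnfrsf11a, which encodes RANK (3.89 and 4.09), Tnfrsf19 and Tnfrsf8. Tnfrsf19 averaged 4.14 ± 0.18 in knockout and 4.54 ± 0.09 in wildtype cells, with separate ranges, and these 5 genes were not tested.

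Of 4 receptors best known from B cells and antigen presentation, 1 rose (Tnfrsf13b), beside 7.88% of all genes, and 3 did not pass. All 4 had a positive fitted difference, as did 8606 of the 14524 genes tested. Tnfrsf13b, which encodes TACI, a receptor for BAFF and APRIL, read 8.67, 8.42, 9.06 and 8.80 in KO1 to KO4, against 7.47, 7.12, 7.23, 7.51 and 7.17 in WT1 to WT5. The lowest knockout array exceeded the highest wildtype array. The gene was 2.76-fold higher in knockout cells (8.74 ± 0.27, n = 4, against 7.30 ± 0.18, n = 5; log2 difference 1.46, SE 0.22, adjusted p = 0.0079), and the log2 difference was 1.20 in batch 1 and 1.64 in batch 2. The call held without any 1 array except WT2 (1.20, adjusted p = 0.0862).

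Tnfrsf13c, which encodes the BAFF receptor, read 8.22, 8.41, 9.66 and 8.14 in KO1 to KO4, against 7.78, 7.08, 7.58, 7.59 and 7.12 in WT1 to WT5. KO3 stood well above the other knockout arrays, and the difference of 1.17 did not pass (adjusted p = 0.118). Cd40, the receptor of B cells and dendritic cells for CD40 ligand, read 8.01, 8.14, 8.24 and 7.92, against 7.91, 7.74, 7.64, 7.89 and 7.81 (0.26, adjusted p = 0.319). The other 2 probe sets of Cd40 had -0.23 and -0.08, so that the direction of Cd40 rested on the probe set used, and the mean of all its probe sets gave -0.02. Tnfrsf17, which encodes BCMA of plasma cells, averaged 4.93 ± 0.20 and 4.67 ± 0.19 (0.24, SE 0.21), with 0.65 in batch 1 and -0.03 in batch 2.

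Some B cell markers rose on the same arrays. Of 10 measured, Ighm (1.88), Cd79a (1.78) and Cd79b (1.60) rose, with a mean list level of 7.35 to 8.13 on knockout arrays and 6.65 to 6.95 on wildtype arrays. KO3, the array highest for Tnfrsf13b and Tnfrsf13c, had the highest of these means, 8.13. KO4 had the lowest of the knockout arrays, 7.35. It was above KO1 and KO2 for Tnfrsf13b (8.80) and the lowest knockout array for Tnfrsf13c (8.14). Cd22 (1.43), Ms4a1 (1.18) and Blnk (1.09) did not pass (adjusted p 0.0543 to 0.0983), though all knockout arrays lay above all wildtype arrays. Such separate ranges were found for 6 of the 10, against 22.2% of all genes, and the median difference was 1.13. Ranges overlapped for Fcrla (0.15), Vpreb3 (0.07) and the B cell transcription factor genes Pax5 (-0.17) and Ebf1 (-0.05). Ebf1 had 1.32 in batch 1 and -0.96 in batch 2. None of the 10 was under the filter level. Their part in the differences of the receptors was not tested.

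**Figure D3:**
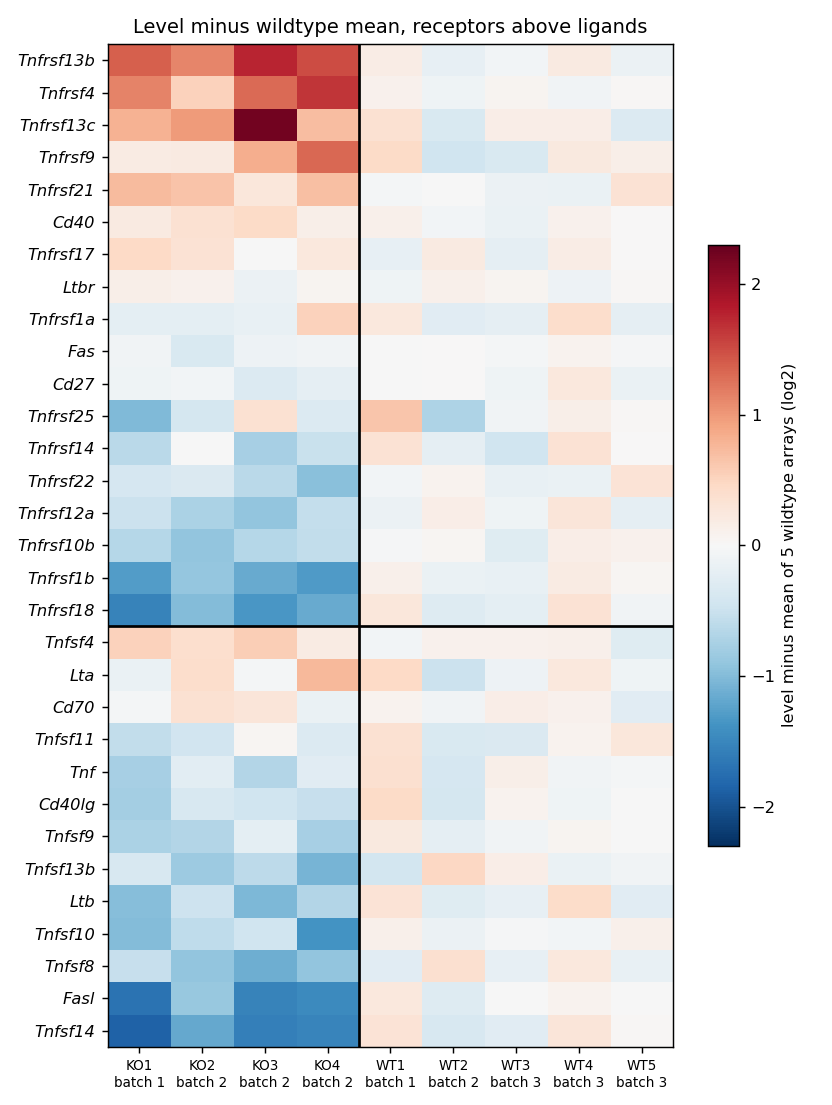
Level on each array minus the mean of the 5 wildtype arrays (log2, colour) for the tested receptor genes above the line and ligand genes below it, with knockout arrays on the left and wildtype arrays on the right. KO2 is paler than the other knockout arrays for 6 of the 7 genes that passed, all but Tnfrsf10b.

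Knockout arrays differed among themselves. For 6 of the 7 genes that passed, KO2 was the knockout array nearest to the wildtype mean: Fasl lay at -0.87 on KO2 and at -1.70 to -1.47 on the others (log2, level minus wildtype mean), and Tnfrsf4 at 0.53 against 1.13 to 1.65. Tnfrsf10b was the exception, at -0.91 on KO2 and -0.66 to -0.57 on the others. How often KO2 lay nearest over all genes was not counted. Over all probe sets KO2 had the lowest interquartile range of levels among the knockout arrays, 3.80 against 3.92 to 4.29. Markers of double-positive thymocytes and of macrophages and dendritic cells were also lowest on KO2 among the knockout arrays, with mean levels of 11.4 and 6.004. Other lists had their lowest knockout array elsewhere: B cell markers on KO4 (7.35, with 7.46 on KO2), regulatory T cell markers on KO3 (8.03, with 8.05 on KO2) and neutrophil markers on KO3 (5.07, with 6.28 on KO2).

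Sizes, and for some genes directions, differed between the batches. Batch 1 rests on 1 array of each genotype and has no replicate check. Batch 2 holds 1 wildtype array, WT2, so the wildtype side of its differences has no replicate either. The 3 wildtype arrays of batch 3 enter only through the spread, and without them the differences were the same but Tnfrsf13b alone of the 7 genes kept its call (adjusted p = 0.0442, and 0.0536 to 0.114 for the others). Of the 31 tested receptor and ligand genes, 22 had the same sign in both batches, 71.0% against 65.3% of all genes. The median ligand difference was -0.95 in batch 1 and -0.35 in batch 2, and the median receptor difference -0.17 and -0.07, beside -0.01 and 0.19 over all genes. Of the 5 genes that fell, 4 had the larger difference in batch 1, all but Tnfrsf10b, and the share over all genes was not counted.

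**Figure D4:**
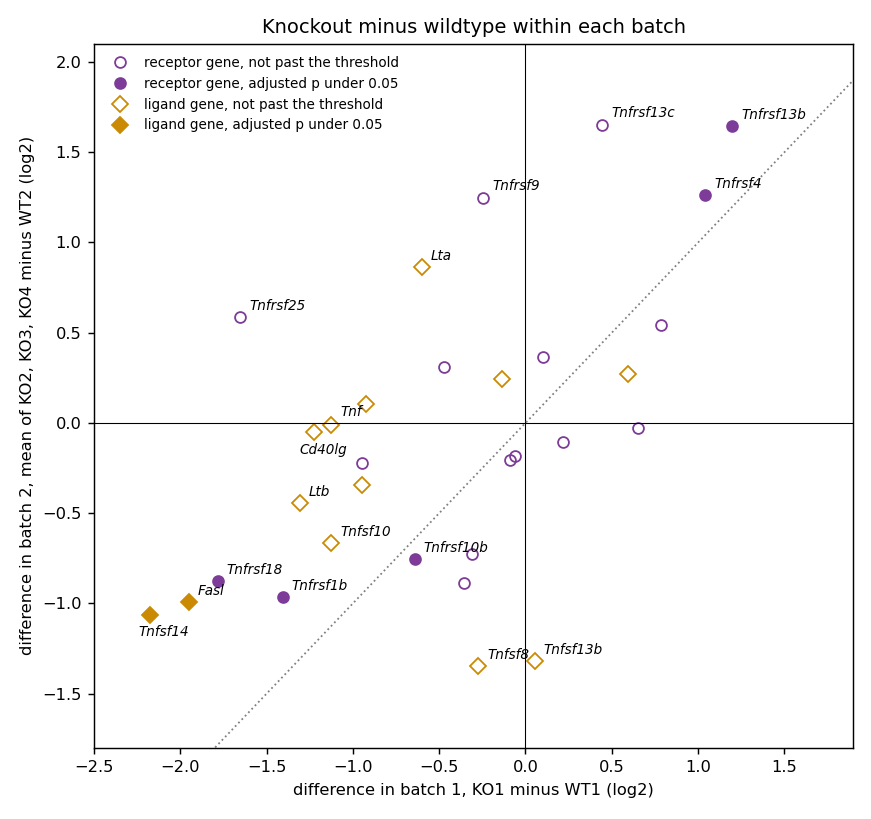
Difference within batch 1 (KO1 minus WT1, horizontal axis, log2) against that within batch 2 (mean of KO2, KO3 and KO4 minus WT2, vertical axis, log2) for the 31 tested receptor and ligand genes, filled where the adjusted p was under 0.05 and with a dotted line of equality. Tnf and Cd40lg lie near 0 on the vertical axis, and Tnfsf13b near 0 on the horizontal axis.

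Few downstream genes of TNF receptor signalling moved. Of a list of 45 adaptors, kinases, ubiquitin editors, caspases and NF-kB subunits and inhibitors, 40 had a probe set of their own and were tested, of which 2 rose and none fell by limma, beside 11.3% called over all genes. An unadjusted p under 0.05 was reached by 8 of the 40, against 30.8% of all genes. The median difference was 0.07, against 0.11 over all genes, with -0.26 in batch 1 and 0.30 in batch 2.

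Nfkbie, which encodes the inhibitor IkB epsilon, read 9.69, 9.64, 10.16 and 10.58 in KO1 to KO4, against 8.99, 8.11, 8.48, 8.92 and 8.26 in WT1 to WT5 (log2 difference 1.49, SE 0.36, adjusted p = 0.0357). Traf6, an adaptor of CD40, RANK and Toll-like receptors, read 8.73, 8.75, 9.06 and 9.22, against 8.15, 7.56, 7.80, 7.80 and 8.07 (1.10, SE 0.23, adjusted p = 0.0240). Both had separate ranges, and both calls rested on single arrays: Traf6 ended without WT2 or KO3 (0.57 and 1.06, adjusted p up to 0.401) and Nfkbie without WT2, WT3, WT4, WT5 or KO3 (adjusted p up to 0.562). When all probe sets of a gene were averaged, Nfkbie and Tank passed and Traf6 did not. With array weights neither Traf6 nor Nfkbie passed.

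Some genes that act directly behind the receptors are given as well, chosen after their values were seen. Casp8, the initiator caspase of death receptors, read 10.13, 10.37, 10.33 and 10.11 in KO1 to KO4, against 10.84, 10.59, 10.65, 10.72 and 10.83 in WT1 to WT5, separate ranges without a call (-0.48, adjusted p = 0.0983). Fadd, which joins caspase 8 to the receptor, had a difference of 0.16 (SE 0.26) and Tradd, the adaptor of Tnfrsf1a, one of -0.11 (SE 0.19). Tnfaip3, which encodes the ubiquitin editor A20 and is induced by NF-kB, had 0.74 with separate ranges (adjusted p = 0.129), while Rela and Nfkb2, subunits of NF-kB, had -0.05 and -0.06.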

How the data were processed

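RNA of sorted thymic iNKT cells was amplified from picogram amounts, biotin labelled and hybridised to Affymetrix mouse arrays, per the labels' protocols. Values had been summarised per probe set by the authors with RMA and deposited as log2 levels, per the submitters' processing notes, and the array medians lay between 5.97 and 6.09. The spread of levels within an array (interquartile range) was 3.80 to 4.29 on knockout and 3.45 to 3.84 on wildtype arrays. Quantile normalization, which gives all arrays the same spread, was run as an alternative. The sources used here give no step after RMA, such as a batch adjustment. No background level or probe signal was used, so depth is unknown and the number of arrays limits precision.

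Of 45101 probe sets, 34945 name 1 gene, 932 name several and were left out, and 9160 name none. Each of 18193 genes was represented by its probe set of highest mean, and the 14524 genes whose mean exceeded a level of 4.54 (log2), percentile 25 over the probe sets, were tested. Differences were fitted with limma 3.58.1 in R 4.3.3 (lmFit and eBayes, two-sided) on genotype and batch as a fixed factor, 5 residual degrees of freedom, with Benjamini-Hochberg adjustment over all genes tested and a threshold of 0.05. All adjusted p-values are limma's. Other probe sets were fitted and adjusted over all probe sets. The same code was also run on simulated data with batch shifts drawn at random. That run checks the code and not these results.

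Replicate numbers were not used as pairs, and the titles do not give them as pairs. Deviations of same-numbered arrays correlated at -0.92, 0.09, 0.02 and 0.15. These values cannot decide on pairing, since KO1 and WT1 are the only arrays of batch 1 and an earlier batch adjustment was not tested. The members, the lists and the classes of receptors were chosen with earlier results of these data known. All members are named, with values per array for those called, those whose groups do not overlap and a fixed set of well-known ones. Alternatives concerned batch, filter, scaling, probe sets, eBayes settings, array weights, threshold and arrays left out. Symbols were matched to RefSeq by Entrez ID (37 of 37 members), and 28 of 37 had a promoter in the RefSeq table.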

Additional observations from a re-analysis of the deposited data

Results flagged for a closer look

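Among the 74 groups of values (37 genes, knockout and wildtype arrays each), 4 held 1 array far from the others by Dixon's ratio of the gap to the range, past its 95% critical value, and chance flags about 1 in 20 groups. All 4 were knockout groups, and none belonged to a gene that passed the test. Tnfsf9 read 7.16 on KO3, against 6.62 to 6.71 on the other knockout arrays (ratio 0.832). Fas read 9.79 on KO2, against 10.03 to 10.06 (ratio 0.866). Tnfrsf1a read 9.65 on KO4, against 8.90 to 8.96 (ratio 0.916). Tnfrsf21 read 7.69 on KO3, against 8.08 to 8.15 (ratio 0.852).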

How the results depend on the processing

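The counts of calls depended mostly on how batch was treated and on the arrays used, and the cause was not tested. As reported, 2 receptors were called higher and 3 lower, 0 ligands higher and 2 lower, and 2 signalling genes in either direction. With no batch term these counts were 5, 5, 1, 9 and 13, and with batch as a random block 7, 8, 1, 10 and 23. With the replicate number as a block in place of batch they were 4, 5, 0, 6 and 7, although the titles do not give the numbers as pairs. With array weights they were 1, 1, 0, 2 and 0. Without the batch 3 arrays they were 1, 0, 0, 0 and 0, without the batch 1 pair 1, 1, 0, 3 and 3, and in batch 2 alone 0 throughout, where limma called 0 of 14524 genes and 3673 had an unadjusted p under 0.05. At an adjusted p of 0.01 they were 1, 0, 0, 0 and 0, and at 0.10 they were 3, 4, 0, 4 and 3. Ligands called lower numbered 4 after quantile normalization, with the mean of all probe sets and with a trend in eBayes. Leaving out each array in turn gave 0 to 2 receptors higher, 1 to 3 lower, 0 ligands higher, 2 to 3 lower and 0 to 3 signalling genes. Over all genes the calls numbered 1634 as reported, 6342 with no batch term, 10045 with a random block, 4290 with the replicate block, 534 with array weights, 340 without batch 3 and 860 to 2054 without 1 array. The split over all genes was 1144 higher and 490 lower as reported, and 1042 higher and 747 lower after quantile normalization. That scaling also gave medians of 0.02 over all genes, -0.68 over ligands and -0.26 over receptors. None of the 7 called receptor and ligand genes changed direction under these alternatives. Differences smaller than the spread between 4 and 5 arrays could not be seen.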
